A study of Mus musculus with 4 samples.

Results

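Chromatin bound by HCF1 in macrophages grown from mouse bone marrow was sequenced after immunoprecipitation (ChIP-seq), and the peaks called on that library are described here as a landscape: how wide and how strong they were, how closely they were packed, which ones formed chains, and where they were dense. All peaks of the HCF1 list on chromosomes 1 to 19 were taken. They numbered 30912 of the 31421 peaks of that list, and the 3 lists of the series hold 59420 peaks in all. The 509 HCF1 peaks not used comprised 455 on X, 2 on Y and 52 on sequences that are random or unplaced in mm9.

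The macrophages were untreated primary cells of strain C57BL/6 with wild-type BAP1, grown from marrow in L929-conditioned medium, and HCF1 was precipitated with an anti-HCF1 antibody. An input library from cells of the same genotype was the control named with the list, and no peak list of the input was analysed here. OGT was precipitated from wild-type cells with an anti-OGT1 antibody, and BAP1 with an anti-FLAG antibody from knock-in cells whose BAP1 carries a 3X FLAG tag. Each protein had 1 library, so the values below carry no error between replicates, and the 95% intervals are exact binomial intervals for counting error only.

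HCF1, host cell factor, is an abundant nuclear protein that does not recognise DNA sequence by itself. Sequence-specific transcription factors bring it to promoters, where it acts as a scaffold that joins them to enzymes that modify histones. OGT, which adds the sugar O-GlcNAc to nuclear and cytoplasmic proteins, both modifies and cleaves HCF1, and BAP1, a deubiquitinase, binds HCF1 through a short motif. For this reason the BAP1 and OGT lists were used as separate readouts at the HCF1 peaks.

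Peak lists hold positions and no expression values, so the macrophage label could not be checked against marker genes. Read depth is not recorded in the lists and is unknown. The lists contained 17389 BAP1 and 10236 OGT peaks on the same chromosomes. No annotation of the mm9 build was used, so regions are named by position, counted from 1, and no gene is assigned to them.

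Most HCF1 peaks were narrow and of low score, and a small number were wide and strong. The width ran from 203 to 17145 bp with a median of 735 bp and quartiles of 487 and 1216 bp. The score, the number that the peak caller attached to each peak, ran from 50 to 3226.07 with a median of 105.09. In 5994 peaks, 19.4%, the score was under 60, close to the lowest value in the list, and in 1083 peaks it was 1000 or more. A score of exactly 3100 was shared by 43 peaks and 6 lay above it, so the order among the strongest peaks is not resolved.

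Peaks of 1000 bp or less made up 66.2% of the list, while the 203 peaks over 5 kb made up 0.657%. These wide peaks held 4.51% of the bases under HCF1 peaks, which totalled 31.0 Mb. The most frequent single width was 354 bp, in 81 peaks, and the next were 353 bp in 73 peaks and 333 bp in 70. Peaks at the narrow end of the list were mostly weak: the 2431 peaks of at most 350 bp had a median score of 55.04, and none of them reached 1000.

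Width and score rose together. Spearman's rho across the 30912 HCF1 peaks was 0.84, and it lay between 0.81 and 0.86 on each of the 19 chromosomes. The same measure was 0.69 across BAP1 peaks and 0.65 across OGT peaks. These coefficients describe peaks of 1 library each, which share its depth and its peak calling, and they carry no test. Among HCF1 peaks with a score of at least 100 the rho was 0.76.

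Within groups of like score, rho was highest among the strongest peaks, which also had the widest range of scores. Peaks were split into 10 equal groups by score, the deciles. The median width was 370 bp in the lowest decile, 646.5 bp in decile 5, 1142 bp in decile 8 and 2277.5 bp in the highest. The lowest decile spanned scores of only 50 to 54.2, and within it rho was 0.01. Within decile 9, from 303.69 to 541.8, it was 0.26. Within the highest, which ran from 542.05 to 3226.07, rho was 0.50. A narrow range of scores lowers rho by itself, and no correction was made for it.

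**Figure D1:**
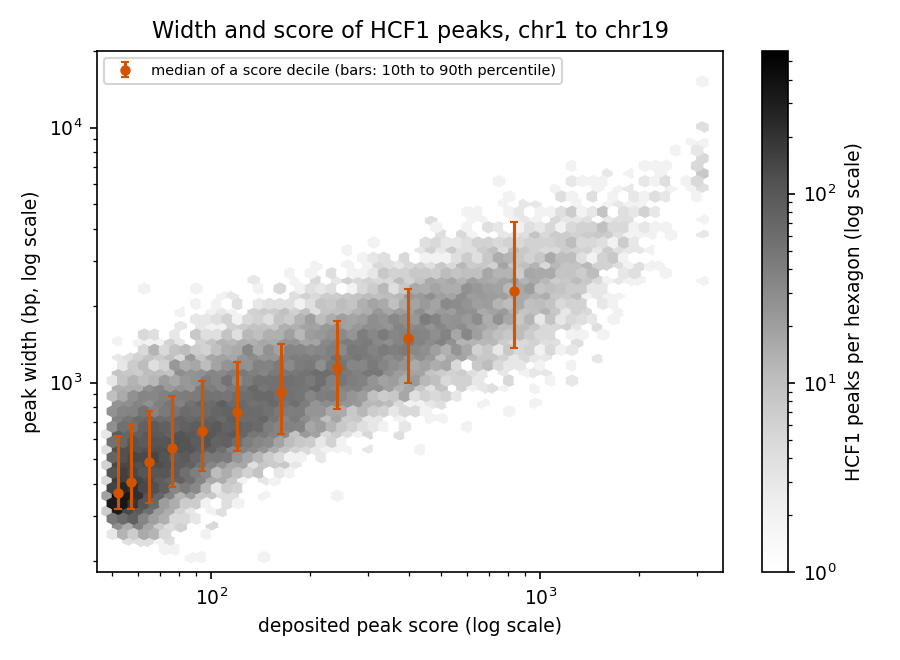
Width (bp, log scale) against deposited score (log scale) of the 30912 HCF1 peaks, as hexagons shaded by the number of peaks. Orange points are the medians of the 10 score deciles and bars run from the 10th to the 90th percentile of width. Median width rose from 370 bp in the lowest decile to 2277.5 bp in the highest.

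The 5 widest HCF1 peaks were not the 5 strongest. The widest, at chr14:63740852-63757996, covered 17145 bp with a score of 1535.57. The second, at chr12:27125200-27141751, covered 16552 bp but scored 515.81, which placed it below the highest decile. The third, at chr19:5836388-5852204, and the fourth, at chr7:29156913-29171877, covered 15817 and 14965 bp and both scored 3100. The fifth, at chr16:97666094-97679488, covered 13395 bp and scored 1095.81. Each of the 5 had another HCF1 peak within 1 kb.

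The other 2 lists differed at these 5 peaks. OGT peaks overlapped all 5 (by at least 1 bp), with 3, 3, 2, 3 and 1 peaks in the order given. BAP1 peaks overlapped the third and the fourth, with 1 and 3 peaks, and none of the other 3. The 5 widest HCF1 peaks were therefore met by OGT in every case and by BAP1 in some. The part of each that lay under OGT or BAP1 was not measured.

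The same order held over the 203 HCF1 peaks wider than 5 kb. OGT overlapped 184 of them, 90.6% (interval 85.8 to 94.3%), and BAP1 overlapped 165, 81.3% (75.2 to 86.4%). Among the 30709 narrower HCF1 peaks the order was the other way round, with 26.4% (25.9 to 26.9%) on OGT and 47.5% (46.9 to 48.1%) on BAP1. Counted by peaks that met 1 protein and not the other, 27 wide peaks lay on OGT alone and 8 on BAP1 alone, against 2022 and 8510 of the narrower ones. This was also seen among peaks of high score. In the highest decile, 24 peaks over 5 kb lay on OGT alone and 7 on BAP1 alone, compared with 102 and 586 of the peaks of 5 kb or less. These counts were compared after the widest peaks had been seen and carry no test.

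By width class the BAP1 share levelled off where the OGT share did not. BAP1 overlapped 10.7% of HCF1 peaks of at most 350 bp, 44.3% of those over 500 and up to 1000 bp, and 84.6% of those over 2 and up to 3 kb. Above 3 kb and up to 5 kb the BAP1 share was 84.5%, with an interval of 81.7 to 87.1%. The OGT share in the same 4 classes was 3.46%, 19.8%, 70.4% and 86.9%. Wider peaks are easier to meet by chance, and the part of width in these shares was not tested. All 12 HCF1 peaks over 10 kb were met by OGT and 9 of them by BAP1.

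Of the 3092 peaks of the highest decile, 16 were no wider than the median of the list, 735 bp. BAP1 overlapped 15 of these 16 and OGT overlapped 10, and 13 stood outside chains. The narrowest peak of the highest decile, at chr3:5860542-5860909, was 368 bp wide and scored 2001.18, and the nearest HCF1 peak lay 283812 bp away. The next 4 by width were 438 to 489 bp wide and scored 600.88 to 927.36. These 5 stood outside chains and overlapped 1 BAP1 and 1 OGT peak each. No filter for sequence of high copy number was applied here.

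Wide peaks of very low score lay at the opposite corner. The widest of the lowest decile, at chr8:47977943-47980256, was 2314 bp wide and scored 50.25. The next, at chr11:16899941-16901840, was 1900 bp wide and scored 52.68. None of the 5 widest peaks of that decile overlapped a BAP1 or an OGT peak.

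HCF1 peaks were closely packed. A chromosome's HCF1 peaks were separated from their neighbours by 30893 gaps, and 7389 of these measured at most 1 kb, which is 23.9% (interval 23.4 to 24.4%). The median gap was 9.06 kb, the lower quartile was 1.119 kb, and the shortest was 1 bp. Short gaps grew more frequent down to the smallest sizes. There were 2296 gaps of 1 to 100 bp, 1270 of 101 to 200 bp, 517 of 401 to 500 bp and 279 of 901 to 1000 bp, and beyond that the counts declined slowly, to 174 of 1901 to 2000 bp. Gaps of 10 bp or less numbered 356. Among the gaps of 1 kb or less the median was 213 bp, so that many of these neighbours nearly touched.

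BAP1 and OGT peaks were less closely packed when the whole lists were compared. Gaps of 1 kb or less made up 7.52% of 17370 gaps in the BAP1 list and 12.3% of 10217 in the OGT list. The odds ratio of HCF1 against BAP1 was 3.87, with a two-sided Fisher's exact p too small for the software to represent, and against OGT it was 2.23 (p = 6.78e-149, also after Benjamini-Hochberg adjustment over the 2 tests). These tests take gaps as units and compare 3 libraries, not conditions. A longer list has shorter gaps, and the comparison with OGT turned round when lists of equal length were used. The 10236 highest-scoring HCF1 peaks had 9.65% (9.08 to 10.2%) of gaps at 1 kb or less, below the 12.3% (11.7 to 13.0%) of OGT, an odds ratio of 0.759 (adjusted p = 8.59e-10, Fisher's exact test). Against BAP1 at equal length HCF1 stayed the more closely packed, with 17.2% (16.6 to 17.8%) and an odds ratio of 2.56.

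**Figure D2:**
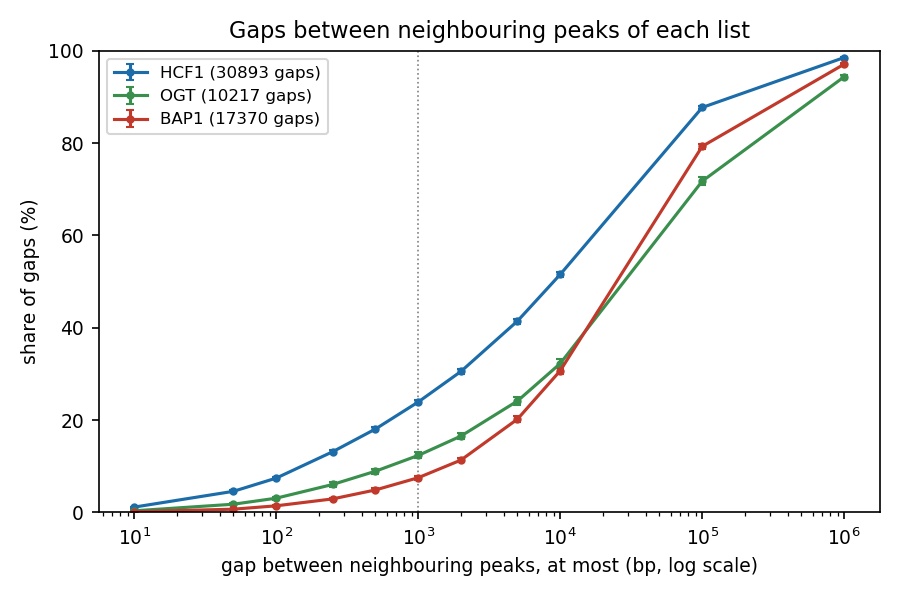
Share of gaps between neighbouring peaks (%) that are at most the length on the x axis (bp, log scale), for HCF1 (blue), OGT (green) and BAP1 (red), with bars for exact 95% intervals. At the dotted line, 1 kb, the shares were 23.9% for HCF1, 12.3% for OGT and 7.52% for BAP1.

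Close packing involved weak and strong HCF1 peaks alike, somewhat more often the stronger. In the lowest score decile 31.3% of peaks (interval 29.7 to 33.0%) had another HCF1 peak within 1 kb. The share was 42.3% in decile 5 and 45.1% (43.3 to 46.8%) in the highest. The median distance to the nearest HCF1 peak was 3.708 kb in the lowest decile and 1.5355 kb in the highest, with no steady order between: it was 1.458 kb in decile 6 and 2.577 kb in decile 9.

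Close neighbours were usually unequal. For gaps of up to 100 bp the higher of the 2 peaks had a median score of 282.76 and the lower one of 87.44, and the median ratio of the higher to the lower was 2.48. For gaps of more than 10 and up to 100 kb the medians were 199.895 and 67.89 and the ratio was 2.11. The scores of neighbours were almost unrelated at every distance, with Spearman's rho between -0.09 and 0.03 over 9 classes of gap.

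Runs of HCF1 peaks in which each gap was 1 kb or less were called chains. Chains of 2 or more took in 12359 of the 30912 HCF1 peaks, 39.98% (interval 39.4 to 40.5%), and 18553 peaks stood alone. There were 4970 chains, of which 3579 had 2 peaks, 863 had 3, 290 had 4 and 121 had 5. A further 106 had 6 to 9 peaks and 11 had 10 or more. The chained peaks held 44.1% of the bases under HCF1 peaks. Chains of 2 spanned a median of 2056 bp and chains of 5 a median of 6774 bp, and the peaks covered a median of 90.01% and 81.8% of those spans.

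The longer a chain, the stronger its highest peak, while its lowest peak remained weak. The highest score of a chain had a median of 225.11 in chains of 2, 321.92 in chains of 3, 599.49 in chains of 5 and 1298.76 in chains of 10 or more. The lowest score had medians of 71.97, 65.2, 61.55 and 56.5 in the same classes. A larger number of peaks gives a higher maximum and a lower minimum by itself, and no correction was made for it. The median over single peaks moved less, from 97.27 for lone peaks to 113.61 in chains of 2 and 125.22 in chains of 5. It was 150.67 in chains of 6 to 9 and 169.44 in chains of 10 or more.

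Scores within a chain were unequal, slightly more so than between HCF1 neighbours further apart. The highest peak of a chain scored a median of 2.32 times the second, and at least 2 times in 2821 of the 4970 chains, 56.8%. In chains of 2 the higher peak scored at least 2 times the lower in 58.1% (interval 56.4 to 59.7%), and the same held for 52.1% (51.5 to 52.8%) of the 23504 pairs of neighbours more than 1 kb apart. Median widths were 1210.5 bp for the highest peaks, 619 bp for the remaining 7389 peaks of chains and 703 bp for lone peaks. Of the remaining peaks 62.6% scored under 100, against 51.1% of lone peaks. Leaving out the highest peak of each chain lowers the scores and widths of the rest by itself. Over all chained peaks the median score was 117.54 and the median width 785 bp, against 97.27 and 703 bp for lone peaks.

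The highest peak was found at every place in the chain. In 863 chains of 3 the middle peak was the highest in 310, 35.9% (interval 32.7 to 39.2%), and the first and last in 273 and 280, where the middle makes up 33.3% of the places. In chains of 4 the highest peak was an inner one in 58.3% (52.4 to 64.0%), against 50% of the places. In chains of 5 it was an inner one in 56.2% (46.9 to 65.2%), against 60% of the places. The intervals for 3 and 5 peaks include those values, and the interval for 4 lies above it.

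Peak by peak, the BAP1 share was lower in chains of 5 or more than in chains of 2, and the OGT share was not. BAP1 overlapped 45.6% of lone HCF1 peaks, 54.8% (interval 53.7 to 56.0%) of those in chains of 2, 48.7% (46.7 to 50.6%) in chains of 3 and 39.3% (35.4 to 43.4%) in chains of 5. In chains of 10 or more it overlapped 37 of 150 peaks, 24.7% (18.0 to 32.4%). OGT overlapped 23.4% of lone peaks, 31.0% (29.9 to 32.1%) in chains of 2, 35.2% (31.4 to 39.2%) in chains of 5 and 46.0% (37.8 to 54.3%) in chains of 10 or more. Counted by chain, the OGT share was higher in longer chains and the BAP1 share differed little. An OGT peak lay somewhere on 46.6% (44.96 to 48.3%) of chains of 2 and 73.9% (67.9 to 79.4%) of the 238 chains of 5 or more. For BAP1 these shares were 70.8% (69.3 to 72.3%) and 75.2% (69.2 to 80.6%), with overlapping intervals. A chain of more peaks has more chances to be met. The class of 10 or more rested in part on 1 chain of 40 peaks. Without it BAP1 overlapped 32.7% (24.1 to 42.3%) and OGT 37.3% (28.2 to 47.0%) of the 110 other peaks.

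**Figure D3:**
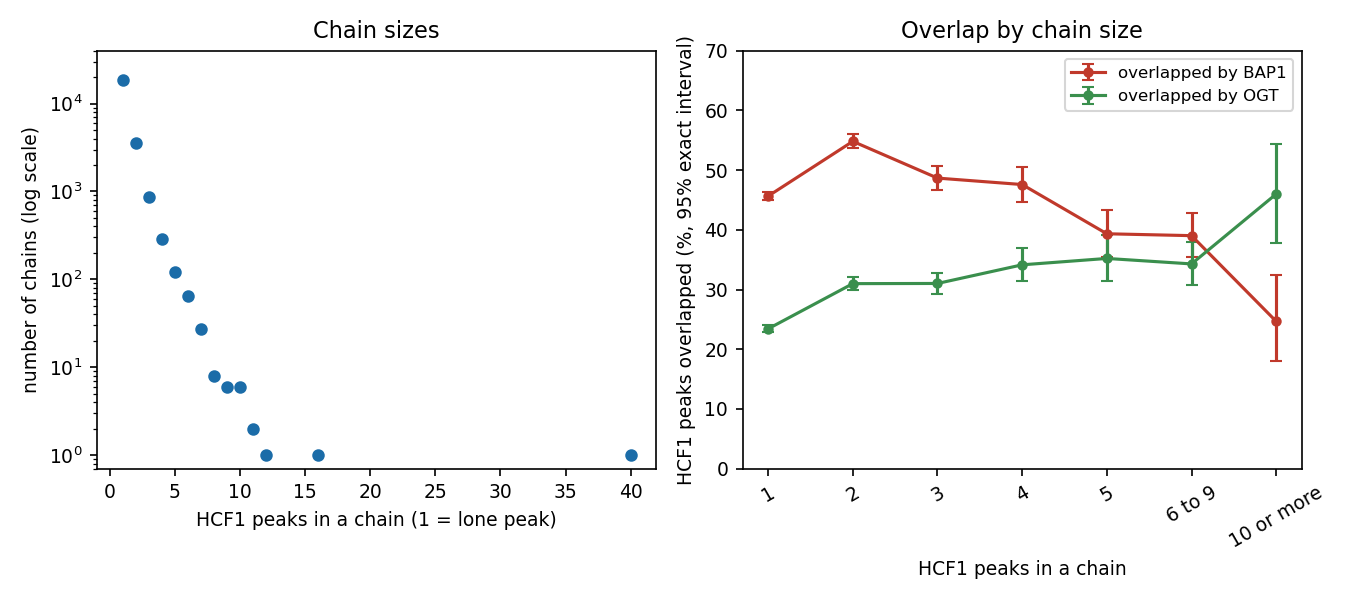
Left, number of HCF1 chains (log scale) by number of peaks, where 1 is a lone peak, 4970 chains have 2 or more peaks and the single chain at the right has 40. Right, share of HCF1 peaks (%) overlapped by BAP1 (red) and OGT (green) by chain size, with exact 95% intervals. The BAP1 share falls from 54.8% in chains of 2 to 24.7% in chains of 10 or more, while the OGT share goes from 31.0% to 46.0%. The last class holds 150 peaks of 11 chains, and without the chain of 40 its shares are 32.7% for BAP1 and 37.3% for OGT. Peaks of the same chain are not independent, so the intervals are too narrow.

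Among peaks of like score, chained HCF1 peaks lay on OGT more often than lone ones. The Mantel-Haenszel odds ratio within score deciles was 1.43 (interval 1.34 to 1.51). It rested on overlap by at least 1 bp and was 0.912 (0.853 to 0.975) when peak centres had to lie within 250 bp. For BAP1 the odds ratio over all deciles was 1.06 (1.001 to 1.11), and its direction depended on the setting. It was 0.414 (0.391 to 0.439) with centres within 250 bp, 0.937 (0.890 to 0.988) with a gap limit of 2 kb and 0.824 (0.764 to 0.889) with a score of at least 100. It also differed between weak and strong peaks. In the lowest decile BAP1 overlapped 26.5% (23.7 to 29.4%) of chained and 10.6% (9.36 to 12.0%) of lone peaks. In the highest decile it overlapped 86.8% (84.9 to 88.5%) of chained and 96.6% (95.7 to 97.4%) of lone peaks. Split after these values were seen, the odds ratio was 1.77 (1.64 to 1.91) over deciles 1 to 5 and 0.635 (0.589 to 0.685) over deciles 6 to 10. The OGT odds ratio was above 1 in both, at 1.69 (1.52 to 1.88) and 1.33 (1.24 to 1.42). Peaks of 1 chain are not independent, so these intervals are too narrow. Median widths of chained and lone peaks were 390 and 363 bp in the lowest decile and 2543 and 2127 bp in the highest. In deciles 5 to 8 the chained peaks were slightly narrower. The part of width in these odds ratios was not tested.

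Among peaks of the highest score decile, those in long chains lacked BAP1 most often. In the highest decile BAP1 overlapped 96.6% of lone peaks, 91.6% (interval 89.3 to 93.5%) of those in chains of 2, 88.3% (84.9 to 91.1%) in chains of 3 or 4 and 67.3% (60.6 to 73.5%) of the 214 in chains of 5 or more. The OGT shares were 74.2%, 80.3%, 83.1% and 77.1%. The 214 peaks came from 144 chains and were wider than lone ones of that decile, with medians of 3268 and 2127 bp.

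Within chains, the peaks below the highest one met the other proteins less often than the highest did. BAP1 overlapped 68.4% (interval 67.0 to 69.6%) of the highest peaks of chains and 39.1% (37.9 to 40.2%) of the remaining ones, and OGT overlapped 46.9% and 21.7%. Of the remaining peaks 52.6% (51.5 to 53.8%) met neither protein, compared with 23.6% (22.4 to 24.8%) of the highest peaks. The highest peaks were also wider, as given above. Set against lone peaks of like score, the weak peaks of chains met both proteins by at least 1 bp more often. The values for the lowest decile and for deciles 1 to 5 show this for BAP1. For OGT in the lowest decile the shares were 7.24% (5.69 to 9.06%) of chained and 3.25% (2.54 to 4.09%) of lone peaks. With centres within 250 bp the odds ratios over all deciles were reversed, at 0.414 for BAP1 and 0.912 for OGT. Weak peaks alone were not compared by centres.

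Some neighbouring HCF1 peaks lay under a single peak of another list. Of the 7389 gaps of 1 kb or less, 2090 had 1 BAP1 peak overlapping the HCF1 peaks on both sides, 28.3% (interval 27.3 to 29.3%), and 725 had 1 OGT peak doing so, 9.81% (9.14 to 10.5%). Of the 13006 BAP1 peaks that overlapped any HCF1 peak, 1883 overlapped at least 2 and 197 at least 3, with 6 as the most. These 1883 BAP1 peaks were wide, at a median of 1900 bp, while those on 1 HCF1 peak had a median of 1338 bp. The reverse was rarer for BAP1: 369 of the 14752 HCF1 peaks on BAP1, 2.501%, overlapped at least 2 BAP1 peaks. For OGT it was about as frequent, with 9.13% (8.52 to 9.77%) of HCF1 peaks on OGT overlapping at least 2 OGT peaks and 8.28% (7.70 to 8.89%) of OGT peaks on HCF1 overlapping at least 2 HCF1 peaks. The BAP1 list was longer than the OGT list and its peaks were wider, with a median of 1247 bp against 914 bp. The HCF1 median was 735 bp. The part of list length and width in these shares was not tested. Whether a chain is 1 region of signal divided in calling was not tested.

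The chain with the most peaks stood far apart from the rest. It lay at chr11:119250857-119336395, held 40 HCF1 peaks over 85.5 kb, and was covered by them to 90.5%. The next chain by number held 16 peaks. Its first peak, of 6234 bp, scored 3100, and peak number 25, of 6090 bp, scored 1260.38. The other 38 scored under 1000, the lowest 91. The median score was 215.92, and 1 of the 40 peaks belonged to the lower 5 score deciles. Gaps inside the chain had a median of 89 bp.

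OGT peaks lay along much of this chain, with breaks, and BAP1 peaks only at its start. OGT had 30 peaks there, which covered 47.3% of the span and overlapped 28 of the 40 HCF1 peaks. Their scores ran from 50.92 to 464.97 with a median of 82.875. BAP1 had 2 peaks, which covered 3.14% of the span and overlapped only the first HCF1 peak. The first of them scored 259.14 and the second 69.31, and both ended within the first 4.144 kb. The chain ended at a gap of 1.011 kb, just over the limit. With a limit of 2 kb it went on to 119353871, with 45 HCF1 peaks over 103 kb, and the last of them scored 1935.73. This longer run held 34 OGT and 3 BAP1 peaks. The third BAP1 peak scored 200.07 and began 101 kb from the start, so that the BAP1 peaks sat at the 2 ends of the run and none lay between.

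**Figure D4:**
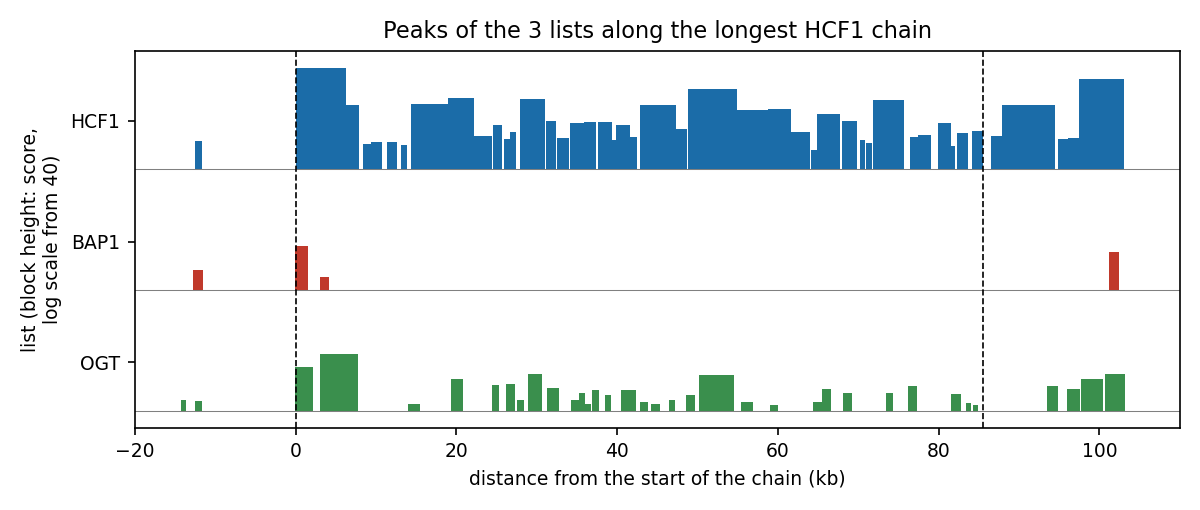
Peaks of HCF1 (blue), BAP1 (red) and OGT (green) along the chain of 40 HCF1 peaks, by distance from its start (kb), with block height giving the score on a log scale from 40. Dashed lines mark the first and last base of the chain. HCF1 peaks cover 90.5% and OGT peaks 47.3% of it, and the BAP1 peaks lie at the 2 ends of the run that continues past the second line.

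Other long chains differed in what covered them. The chain of 16 peaks at chr11:88870006-88887222 was made of weak peaks, with a highest score of 250.84 and a median of 86.34. A single BAP1 peak covered 32.5% of it and 3 OGT peaks covered 14.4%, and 11 of its 16 HCF1 peaks met neither. The chain of 11 at chr16:97767548-97787653 reached a score of 1205.95, yet 10 of its 11 peaks met neither protein. It held no BAP1 peak and 1 OGT peak. The chain of 12 at chr15:76056784-76074670 held 3 BAP1 and 5 OGT peaks, which covered 21.8% and 37.1% of it. That of 11 at chr10:79514210-79528411 held 5 and 4, which covered 50.1% and 33.0%.

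By length the second chain, at chr7:132694442-132728048, consisted of 5 peaks over 33.6 kb, the widest 12475 bp. OGT peaks covered 56.0% of it and BAP1 peaks 20.03%. The third, at chr19:41392859-41421632, had 10 peaks over 28.8 kb with 27.4% under BAP1 and 9.05% under OGT, the reverse order. The fourth, at chr14:63740852-63767937, began with the widest HCF1 peak of the list and was covered to 51.3% by OGT and 33.3% by BAP1. The fifth, at chr17:34044565-34070224, had 9 peaks over 25.7 kb, with 64.8% under OGT and 35.1% under BAP1. OGT thus covered more than BAP1 in 4 of the 5 longest chains, the chain of 40 among them. Among the 5 chains with most peaks the order was mixed. BAP1 covered more in the chain of 16 and in that of 11 on chromosome 10, and OGT in the others.

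HCF1 peaks were unevenly spread at the scale of 1 Mb. Windows of that length between the first and last peak of each chromosome numbered 2415. They held a median of 7 HCF1 peaks, with quartiles of 1 and 18 and a highest count of 123, and 539 of them, 22.3%, held none. The variance of the counts was 21.03 times their mean. The densest 10% of windows, 242 with 35 or more peaks, contained 40.2% (interval 39.6 to 40.7%) of all HCF1 peaks, and 50% of the peaks lay in 338 windows. The 102 windows with 50 or more peaks held 21.7% of the list.

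Density differed between chromosomes. Chromosome 11 held 22.6 and chromosome 19 held 21.4 HCF1 peaks per Mb between their first and last peak, followed by chromosome 17 with 17.1. The lowest density was 8.75 per Mb, on chromosome 18, and chromosome 12 held 9.54. Close packing was highest on chromosomes 19 and 11 and lowest on chromosome 18. Gaps of 1 kb or less made up 29.8% (interval 27.3 to 32.4%), 27.2% (25.5 to 28.9%) and 18.8% (16.1 to 21.7%) there. Between these the order was not that of density. The share was 19.3% on chromosome 16, with 11.1 peaks per Mb, and 22.2% on the sparser chromosome 12. The median width per chromosome lay between 701 and 779 bp over the 19 chromosomes.

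**Figure D5:**
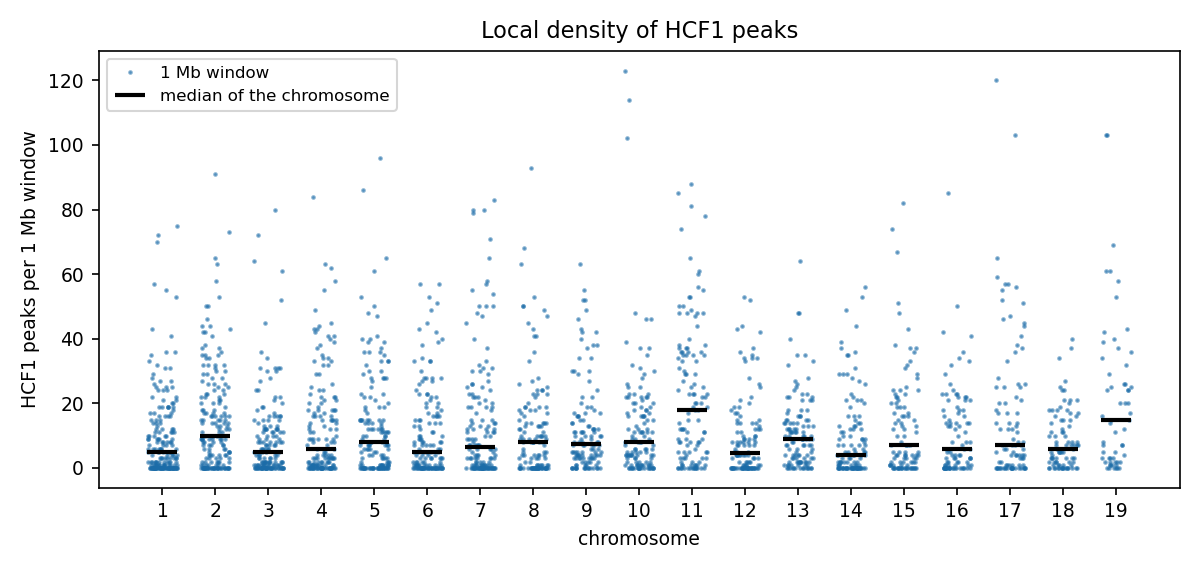
HCF1 peaks per 1 Mb window on each of chromosomes 1 to 19 (points, spread sideways for visibility), with the median of each chromosome as a bar. Medians run from 4 on chromosome 14 to 18 on chromosome 11, and the highest window, on chromosome 10, holds 123 peaks.

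The 6 densest windows, of which 3 tied at 103 peaks, lay on chromosomes 10, 17 and 19. The window at chr10:80000001-81000000 held 123 peaks and its neighbour chr10:79000001-80000000 held 114. The windows at chr17:34000001-35000000 and chr17:35000001-36000000 held 120 and 103, and those at chr19:5000001-6000000 and chr19:11000001-12000000 held 103 each. Their peaks covered 113.884 to 149.35 kb of each Mb. The first window on chromosome 17 had the most chained peaks, 86 of 120, and the lowest median score of the 6, 96.715. In the densest window, on chromosome 10, 73 of 123 peaks were chained and 27 belonged to the highest score decile. For each BAP1 peak it held fewer HCF1 peaks than the first window on chromosome 17, which had 51 BAP1 and 57 OGT peaks against 80 and 72. The window at chr19:11000001-12000000 had the fewest peaks of the other proteins among the 6, with 17 of BAP1 and 28 of OGT.

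Dense windows held peaks of much the same strength as sparse ones. Over the 1383 windows with at least 5 peaks, the Spearman rho of the peak count with the median score was 0.03 and with the median width 0.10. The median score was 102.94 in windows with 1 to 5 peaks, 103.45 in those with 21 to 40 and 115.19 in the 18 windows with more than 80. The highest score decile was more frequent at the dense end, with 14.2% of the peaks in those 18 windows against 8.87% in the windows with 1 to 5. Chained peaks made up 18.3% (interval 16.4 to 20.4%) of the peaks in windows with 1 to 5 and 58.9% (56.6 to 61.3%) in windows with more than 80. More peaks in a window leave shorter gaps by arithmetic.

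OGT overlap rose with the density of HCF1 peaks and BAP1 overlap did not. OGT overlapped 18.5% (interval 16.5 to 20.5%) of the HCF1 peaks in windows with 1 to 5, 26.8% (26.0 to 27.7%) in windows with 21 to 40 and 37.5% (35.2 to 39.8%) in windows with more than 80. The BAP1 share was 47.6% (45.1 to 50.2%), 45.8% (44.8 to 46.7%) and 47.6% (45.2 to 50.01%) in the same classes, with its highest value, 51.6%, in windows with 41 to 80. Median width differed little over these classes, from 667 bp in the sparsest to 781.5 bp in the densest, and its part in the OGT shares was not tested. In total counts, HCF1 peaks per OGT peak fell from 4.01 in the sparsest class to 2.25 in the densest, and HCF1 peaks per BAP1 peak went from 1.45 to 2.05. Over all 2415 windows the HCF1 count had a Spearman rho of 0.93 with the BAP1 count and 0.90 with the OGT count, as a description of windows that share their sequence and its mappability.

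At the other extreme, 453 gaps between neighbouring HCF1 peaks were longer than 1 Mb. The longest stretch without an HCF1 peak, chr14:87817498-99444799, measured 11.6 Mb and contained 1 BAP1 and 1 OGT peak. The second, chr15:12769030-24364301, also measured 11.6 Mb and contained 1 BAP1 and 2 OGT peaks. The next 3, on chromosomes 6, 3 and 8, measured 8.72, 8.66 and 8.22 Mb and contained 1, 2 and 1 BAP1 peaks and no OGT peak. Whether these stretches can be aligned to uniquely was not tested. A stretch with no called peak is not shown to be unoccupied at unknown depth.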

How the data were processed

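The deposited data are peak lists, 1 per ChIP library, giving the position and a score for every peak. GSNAP, MACS 1.4 and the build mm9 are named in the submitters' processing notes, without settings. The sources used here do not define the score. The score is the authors' own value. It was used within a list only, to rank and filter peaks and to form ratios between peaks. Without a definition of the score, such a ratio does not measure how much stronger a peak was. Read depth is unknown, and p-values and intervals treat peaks or gaps as units of 1 library each, with no spread between cultures.

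Starts were read as counted from 0. Peaks on chromosomes 1 to 19 were sorted, the gap to the next peak was counted in bp, and peaks with gaps of 1 kb or less were joined into chains. Peaks were counted by centre in 1 Mb windows. Overlap meant at least 1 bp. Shares have exact Clopper-Pearson 95% intervals. Closeness between lists was compared with two-sided Fisher's exact tests, and chained with lone peaks by Mantel-Haenszel odds ratios within score deciles. Python 3.11.15 with scipy 1.17.1 was used, and the functions were tested on simulated lists.

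Named regions are the 5 widest peaks, the 5 narrowest of the highest and the 5 widest of the lowest score decile, the 5 chains with most peaks, the 5 longest chains, the 5 densest windows (and 1 tied with the last) and the 5 longest stretches without a peak. Members, lists and rules were chosen with earlier results of these data known. The alternatives were a score of at least 100, all sequences, no HCF1 peaks over 5 kb, gap limits of 500 bp and 2 kb, lists of equal length, windows of 500 kb, 2 Mb or moved by 500 kb, and centres within 250 bp. The annotation supplied was of another build, so genes and sequences were not used here.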

Additional observations from a re-analysis of the deposited data

How the results depend on the processing

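Of 75 values under other settings, 44 stayed within limits that differ by kind of value: shares within the 95% interval of the reported share, counts within 1.5 times, rho and the variance to mean ratio within 1%, and odds ratios on the same side of 1 and of the test's threshold, whatever their size. With a score of at least 100, the width and score rho was 0.76, gaps of 1 kb or less 15.7%, chained peaks 27.5%, chains of 3 or more 403, the middle peak highest in 31.8%, gaps bridged by OGT 8.80%, the densest 10% of windows 42.1%, the variance to mean ratio 12.1 and the BAP1 odds ratio of chained peaks 0.824, reversed from 1.06. With a gap limit of 500 bp, short gaps were 18.1%, chained peaks 31.6%, and gaps bridged by BAP1 34.9% and by OGT 12.4%. With 2 kb these were 30.5%, 48.9%, 22.5% and 7.71%, and the BAP1 odds ratio reversed to 0.937. With centres within 250 bp the odds ratios reversed to 0.414 for BAP1 and 0.912 for OGT. Over score deciles 6 to 10 alone, chosen after seeing the data, the BAP1 odds ratio was 0.635. With lists of equal length the odds ratio of short gaps in HCF1 against OGT reversed to 0.759. The densest 10% of windows held 36.4% with windows of 2 Mb, 45.9% with 500 kb and 41.4% with all sequences. The variance to mean ratio was 31.8 with 2 Mb, 14.3 with 500 kb, 21.3 with all sequences and 20.7 without peaks over 5 kb. Other gap limits and windows change these values by construction, and for the rest the cause was not tested. No paired analysis was possible because there is a single library for each antibody. Unknown depth limits what a missing peak means.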
